A study of Homo sapiens with 6 samples.

Results

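The genes described here are the core genes of Wnt signalling: 41 symbols covering the ligands and the proteins that process them, the Frizzled receptors and their co-receptors, the R-spondin receptors, the Dishevelled adaptors, the TCF/LEF factors, and the inhibitors that act at the cell surface or inside the cell. A gene belonged to the set if its symbol was listed and the platform annotation gave it a probe in the scanner table; the rule itself sets no threshold on a measured value, but the symbols were chosen with earlier results of these data known. Of the 41 symbols, 39 had a probe (57 probes of 47322 on the array), 22 genes were above background on enough arrays to be tested, and these 22 stood among 10279 genes tested in all. TCF7 and PORCN had no probe under those symbols in the annotation used and are not analysed here.

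Total RNA was profiled on Illumina HT-12 v4 BeadChips, in which each probe is a short oligonucleotide attached to beads and its brightness follows the amount of labelled cRNA bound. The cells were H460, an established human line of large cell lung carcinoma, split in BME-coated invasion chambers (BME, basement membrane extract) into the cells that stayed in the top insert and the cells that crossed to the lower vessel. After repeated rounds of this selection the former were called L-INV (low invasiveness) and the latter H-INV (high invasiveness), so that neither group is the unselected parental line. Both were kept in glucose-free RPMI-1640 with 10% FBS and stored in liquid nitrogen. They were thawed and selected again before RNA was prepared. RNA came from 3 sets of cells for each subpopulation (3 L-INV arrays against 3 H-INV arrays), and nothing in the sources says whether the sets were selected separately, so p-values reflect how far the sets differ from each other, and that spread may be purely technical.

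All 6 arrays were on 1 BeadChip, with the L-INV arrays at neighbouring positions and the H-INV arrays at the others, so position and subpopulation cannot be told apart. The arrays were alike in median scanner intensity (123 to 134) and in the number of probes above background (16368 to 16985), and normalized values correlated at 0.995 to 0.996 within a group and 0.920 to 0.927 between groups. Of the epithelial markers listed, 5 of 7 were above background on some array, and CDH1 and CLDN4 on none. Their summed linear level was 7833 to 7919 in L-INV and 2044 to 2113 in H-INV. This difference was carried mostly by KRT19 (log2 fold change -4.12). EPCAM was lower as well (-1.55), by at least 1.90-fold on the background-corrected scale, since its H-INV signal never exceeded background. KRT8 (-0.30) differed less, KRT18 did not pass the test and KRT7 was higher (1.09). Among the fibroblast markers, 3 of 7 were above background on some array, with a summed level of 765 to 815 in L-INV and 1361 to 1713 in H-INV, while COL1A2, DCN, LUM and PDGFRA were not. COL3A1, the only fibroblast marker tested, was higher in H-INV (1.12). COL1A1 was above background on 2 arrays, both H-INV, and PDGFRB on 2 arrays, both L-INV. Leukocyte markers with a probe gave 795 to 888 in L-INV and 345 to 366 in H-INV, carried by CD14 and CD68, with PTPRC, CD3E and LYZ below background on every array, and none of the 4 endothelial markers was above background. The part of these markers in the results below was not tested.

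Wnt proteins are secreted lipid-modified ligands that bind a Frizzled receptor together with LRP5 or LRP6. The receptor complex recruits Dishevelled and inactivates the APC, AXIN and GSK3 destruction complex, so that beta-catenin accumulates and joins TCF/LEF factors on target genes. Other Wnt ligands, WNT5A among them, act mainly without beta-catenin, on cell polarity and movement. R-spondins raise the amount of Frizzled at the surface by binding LGR receptors and removing the ubiquitin ligases ZNRF3 and RNF43, and Dickkopf proteins block the LRP co-receptors. In lung carcinoma the pathway has been studied mainly for growth, invasion and drug response.

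In H-INV against L-INV, 6 of the 22 tested Wnt genes were higher, 8 were lower and 8 did not pass an adjusted p of 0.05 (limma, two-sided, Benjamini-Hochberg adjustment over all genes tested). The genes that moved most were the Dickkopf inhibitor DKK1 and the R-spondin receptor LGR4, both lower in H-INV, and the receptor FZD4, higher in H-INV. The 14 genes called are 63.6% of the 22, against 58.0% of all genes tested, where 32.6% were higher and 25.4% were lower. The 3 arrays of one group lay entirely above those of the other for 15 of the 22, which is 68.2% against 64.5% over all genes. A share this close to the background is not a result about Wnt genes, and what follows is therefore a description gene by gene. The median log2 fold change was -0.06 for the tested Wnt genes and 0.05 for all genes. In RNA from a whole population, fewer cells that express a gene and less RNA for each cell cannot be told apart.

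Past a fold change of 2 as well as the adjusted p, 2 of the 22 tested Wnt genes were higher, FZD4 and LEF1. FZD8, LGR4 and DKK1 were the 3 that were lower. Without background correction FZD8 and LEF1 were below 2-fold. Over all genes 10.2% passed both thresholds, 4.22% higher and 6.02% lower. Counted by their action at the adjusted p alone, the 14 tested activators comprised 4 higher, 5 lower and 5 that did not pass. The 6 tested inhibitors comprised 1 higher, 2 lower and 3 that did not pass. Of the 2 tested TCF/LEF factors, 1 was higher and 1 was lower. These counts by action stand against 58.0% called over all genes, 32.6% higher and 25.4% lower. For 3 of the 22 tested genes (WNT5B, LEF1 and LGR4) the arrays of only one group were above background. The same was so for 517 of the 10279 genes tested in all. Such genes entered the test through the group in which they were high and had to differ. WNT5B, LEF1 and LGR4 are among the 14 genes called, and their adjusted p-values do not test whether they differ.

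**Figure D1:**
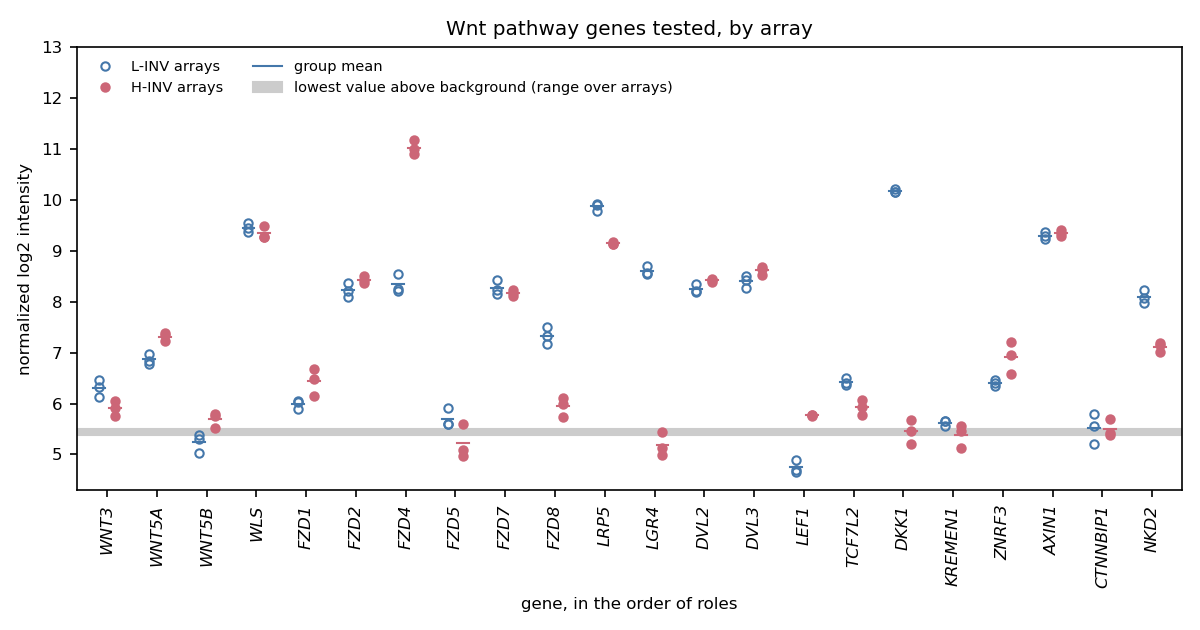
Normalized log2 intensity of the 22 tested Wnt genes on each array (open circles, L-INV; filled circles, H-INV; short lines, group means), in the order of their roles. The grey band spans the lowest value above background on each array, 5.39 to 5.49. DKK1 and LGR4 drop from well above the band in L-INV to the band or close to it in H-INV, and FZD4 rises from a mean of 8.34 to 11.03.

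Among the activators, 3 of the 8 listed Wnt ligands were tested and all 3 were called, with changes below 1.5-fold. Since 58.0% of all genes tested were called, this count is not a result about ligands. WNT5A, the ligand best known for signalling through cell polarity and calcium, measured 6.78, 6.83 and 6.98 in L-INV and 7.34, 7.22 and 7.38 in H-INV, in normalized log2 intensity with 1 value for each array. Every H-INV array was above every L-INV array, and the difference of 0.45 (SE 0.0798, adjusted p = 0.00141) was called under all 15 alternative settings. WNT5B, its closest relative, was above background on the 3 H-INV arrays (5.80, 5.52 and 5.75) and on no L-INV array (5.31, 5.03 and 5.38). The fitted difference was 0.45 (SE 0.113, adjusted p = 0.0084), but since the L-INV values have only a bound the gene is at least 1.17-fold higher, and its second probe was not above background on any array. The WNT5B difference without background correction was 0.14, a smaller change than the bound. WNT3, a ligand of the beta-catenin branch, was lower by a log2 fold change of -0.40 (SE 0.107, adjusted p = 0.0118), with 6.47, 6.31 and 6.13 in L-INV and 6.04, 5.91 and 5.76 in H-INV. The groups did not overlap for WNT3, although the lowest L-INV array lay close to the highest H-INV array. With a one-way ANOVA in place of the shared variance estimate, the adjusted p was 0.066 for WNT3 and 0.0586 for WNT5B. The other 5 listed ligands, WNT6, WNT7A, WNT7B, WNT10A and WNT11, had no probe above background on 3 arrays.

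WLS, the carrier that brings lipid-modified Wnt proteins to the cell surface, did not pass the test. It measured 9.54, 9.37 and 9.45 in L-INV and 9.49, 9.27 and 9.27 in H-INV, and the groups overlapped. The 95% confidence interval of its log2 fold change ran from -0.31 to 0.09 (adjusted p = 0.307), and its other 4 probes gave values between -0.01 and 0.10, none of which passed.

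Of the Frizzled genes, which encode the seven-pass receptors for Wnt ligands, 6 were tested. The genes called were FZD4, FZD8, FZD1 and FZD5, against 58.0% called over all genes tested. FZD4, the receptor for WNT ligands and for norrin, measured 8.22, 8.54 and 8.25 in L-INV and 10.89, 11.01 and 11.18 in H-INV. The 3 H-INV arrays were tightly grouped and far above the L-INV arrays, a log2 fold change of 2.69 (SE 0.109, adjusted p = 1.85e-07) or 6.44-fold on the normalized scale. FZD8 went the other way, with 7.50, 7.33 and 7.16 in L-INV against 6.11, 5.99 and 5.74 in H-INV. Its arrays did not overlap, its log2 fold change was -1.38 (SE 0.118, adjusted p = 1.85e-05), and without background correction the change shrank to -0.69, which is under 2-fold.

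FZD1 was higher in H-INV by 0.44 (SE 0.125, adjusted p = 0.0157) with 5.90, 6.04 and 6.05 in L-INV and 6.15, 6.67 and 6.48 in H-INV. A second FZD1 probe gave a larger difference of 0.93 (adjusted p = 0.000226 over all probes), whereas the call of the first was lost with a one-way ANOVA (adjusted p = 0.0876) and when L-INV replicate 1 was left out (0.39 at an adjusted p of 0.0547). FZD5 was lower by -0.48 (SE 0.163, adjusted p = 0.0322), but its groups overlapped, with 5.60, 5.59 and 5.91 in L-INV and 4.97, 5.09 and 5.60 in H-INV. Only 1 H-INV array was above background for FZD5, and leaving out L-INV replicate 3, H-INV replicate 1 or H-INV replicate 2 raised its adjusted p to 0.105, 0.104 and 0.0967, as did a one-way ANOVA (0.143) and dropping the detection filter (0.0743). FZD2 and FZD7 did not pass the test. FZD2 measured 8.38, 8.22 and 8.09 in L-INV and 8.37, 8.50 and 8.42 in H-INV (log2 fold change 0.20, adjusted p = 0.076), and it passed without L-INV replicate 1 (0.27, adjusted p = 0.0255). FZD7 had a log2 fold change of -0.10 with a 95% confidence interval of -0.30 to 0.09.

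The co-receptor LRP5, a single-pass LDL receptor relative that pairs with Frizzled, was lower in H-INV. Its values were 9.93, 9.90 and 9.79 in L-INV and 9.17, 9.12 and 9.14 in H-INV, a log2 fold change of -0.73 (SE 0.0677, adjusted p = 3.17e-05) or 1.65-fold. The second LRP5 probe was also lower, by -0.49 (adjusted p = 0.0093 over all probes), and the call held under all 15 alternatives. Its paralog LRP6 was not above background on any array, with values between 4.93 and 5.45.

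**Figure D2:**
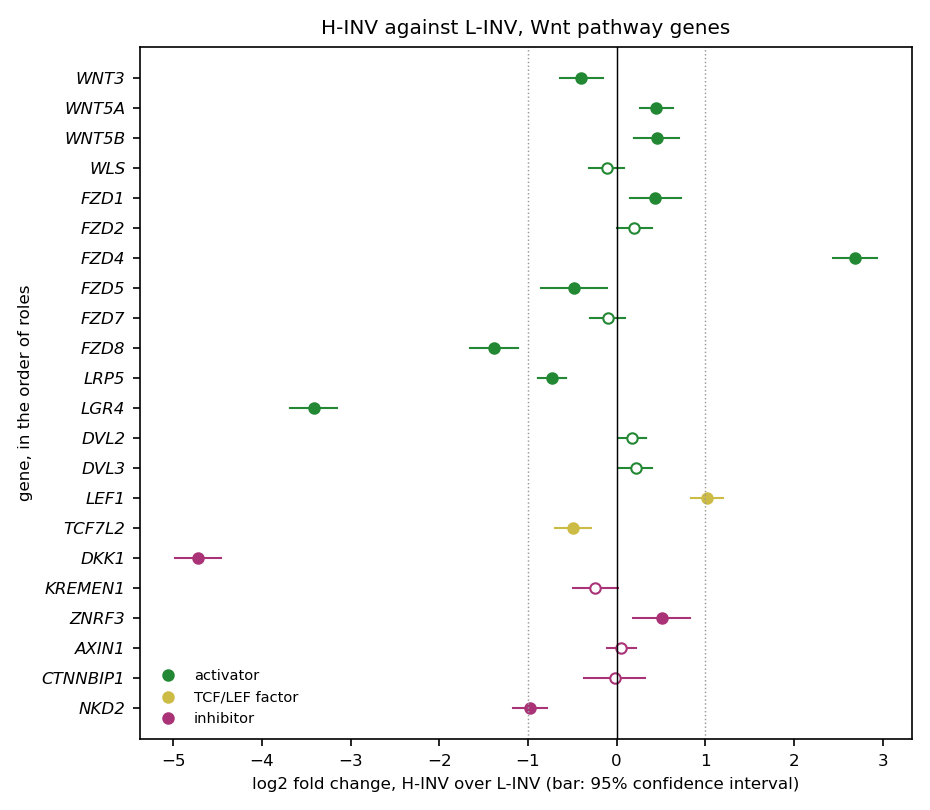
Log2 fold change of H-INV over L-INV for the 22 tested Wnt genes, with 95% confidence intervals from limma (bars), in the order of their roles; filled points passed an adjusted p of 0.05, colours mark activators, TCF/LEF factors and inhibitors, and dotted lines mark 2-fold. The points run from -4.72 for DKK1 to 2.69 for FZD4, and both directions occur among activators and among inhibitors.

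LGR4, a receptor for R-spondins and the only tested gene of the LGR pair listed, was lower in H-INV. Its values of 8.70, 8.54 and 8.57 in L-INV stood against 4.99, 5.13 and 5.44 in H-INV, where no array was above background. The scanner intensities before any correction were 591, 477 and 454 in L-INV and 128, 134 and 143 in H-INV, where the median probe of an array lay at 123 to 134. LGR4 was therefore at least 8.89-fold lower in H-INV, and the fitted log2 fold change was -3.42 (SE 0.116, adjusted p = 7.18e-08), or -1.84 without background correction, which is a smaller change than the bound. LGR5, its stem cell relative, was not above background on any array.

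The ligand of LGR4 changed in the same direction. RSPO3, the only one of 4 R-spondins above background on enough arrays, measured 10.04, 9.98 and 9.88 in L-INV and 4.49, 4.40 and 4.29 in H-INV. RSPO3 thus was lower by at least 22.9-fold (fitted log2 fold change -5.57, SE 0.0789, adjusted p = 6.28e-10), and no H-INV array was above background. Without background correction the log2 fold change of RSPO3 was -3.33, a smaller change than the bound. ZNRF3, the membrane ubiquitin ligase that removes Frizzled receptors and that R-spondin and LGR proteins hold in check, was higher in H-INV. Its values were 6.34, 6.40 and 6.45 in L-INV and 7.20, 6.95 and 6.58 in H-INV, a log2 fold change of 0.51 (SE 0.14, adjusted p = 0.013). The H-INV arrays were more scattered than the L-INV arrays, the lowest lay just above the L-INV range, and a one-way ANOVA gave an adjusted p of 0.0853. RNF43, the related ligase, was not above background on any array.

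**Figure D3:**
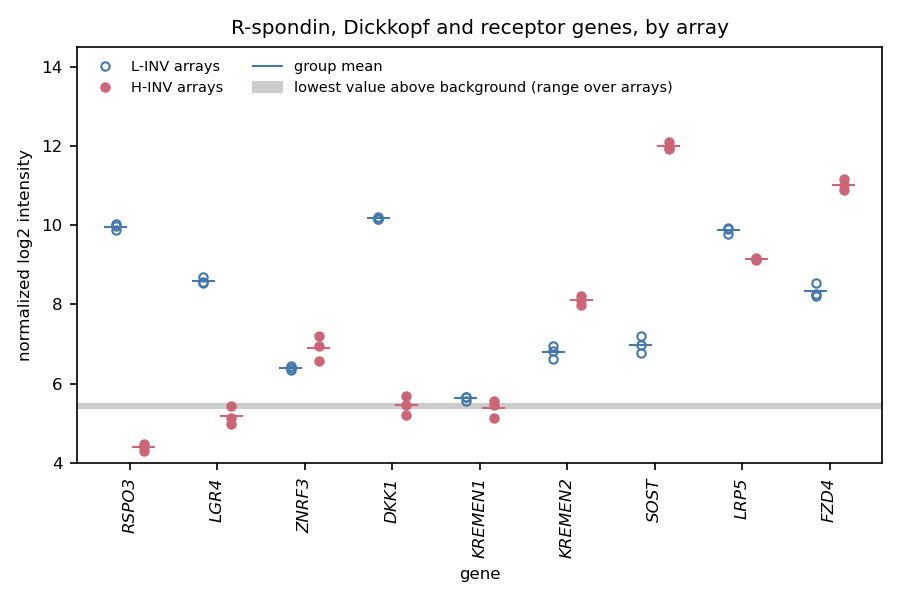
Normalized log2 intensity on each array (open circles, L-INV; filled circles, H-INV; short lines, group means) for genes of the R-spondin branch, the Dickkopf and Kremen inhibitors, SOST, and the receptors LRP5 and FZD4; the grey band spans the lowest value above background, 5.39 to 5.49. RSPO3, LGR4 and DKK1 lie between 8.54 and 10.21 in L-INV and between 4.29 and 5.68 in H-INV, whereas SOST lies between 11.93 and 12.10 in H-INV.

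Dishevelled proteins relay the signal from the receptors, and neither tested member passed the test. DVL2 (log2 fold change 0.17, adjusted p = 0.0643) and DVL3 (0.21, adjusted p = 0.0549) were each higher on all 3 H-INV arrays than on any L-INV array. DVL3 measured 8.27, 8.50 and 8.43 in L-INV and 8.52, 8.68 and 8.65 in H-INV, and it passed under 8 of 15 alternatives, among them leaving out L-INV replicate 2 (0.26, adjusted p = 0.044) or H-INV replicate 1 (0.26, adjusted p = 0.0422). DVL2 passed under 1, without L-INV replicate 1 (adjusted p = 0.0383). DVL1 was not above background.

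The 2 tested TCF/LEF factors, the DNA-binding partners of beta-catenin, moved in opposite directions. LEF1 measured 4.65, 4.70 and 4.89 in L-INV, where no array was above background, and 5.78, 5.75 and 5.77 in H-INV, where all 3 were. LEF1 thus was higher by at least 1.23-fold, and the fitted log2 fold change was 1.02 (SE 0.0787, adjusted p = 1.01e-05). The level in H-INV was low, with scanner intensities of 150, 151 and 154 against 128, 124 and 126 in L-INV, and without background correction the log2 fold change was 0.32. TCF7L2 was lower, with 6.40, 6.50 and 6.35 in L-INV and 5.94, 5.77 and 6.08 in H-INV (log2 fold change -0.49, SE 0.0901, adjusted p = 0.00171). The groups did not overlap and the call of TCF7L2 held under all 15 alternatives. TCF7L1, mostly a repressor, was not above background.

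Among the inhibitors, DKK1 had the largest fitted change of the 22 tested Wnt genes. DKK1, a secreted protein that binds LRP5 and LRP6 and is itself a target of beta-catenin signalling, measured 10.16, 10.15 and 10.21 in L-INV and 5.21, 5.68 and 5.46 in H-INV. The L-INV arrays were within a narrow range, and only 1 of 3 H-INV arrays was above background. The log2 fold change was -4.72 (SE 0.113, adjusted p = 8.81e-09), or 26.4-fold lower in H-INV on the normalized scale. As H-INV lies at background, the size depends on how background is handled, and without background correction the log2 fold change was -3.11. The scanner intensities were 1427, 1258 and 1220 in L-INV and 134, 149 and 144 in H-INV. A second DKK1 probe was not above background on any array.

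The promoters of the 3 genes with the largest changes are shown because these genes lead the comparison and because DKK1 is a known target of beta-catenin signalling. They are the 250 bases before the start site, from RefSeq on GRCh38.p14, read 5′ to 3′ on the strand of the gene: DKK1 at chr10:52314031-52314280 (plus strand), LGR4 at chr11:27472791-27473040 (minus strand) and FZD4 at chr11:86955396-86955645 (minus strand). Capitals mark matches on either strand to the TCF/LEF motif in its forms CTTTGAT and CTTTGTT, or with the ending changed to CTTTGAA.
DKK1: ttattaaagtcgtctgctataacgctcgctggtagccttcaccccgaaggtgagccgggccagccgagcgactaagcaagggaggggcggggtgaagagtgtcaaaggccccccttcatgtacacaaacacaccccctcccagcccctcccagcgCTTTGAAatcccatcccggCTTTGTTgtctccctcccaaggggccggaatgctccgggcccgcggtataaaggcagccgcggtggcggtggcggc
LGR4: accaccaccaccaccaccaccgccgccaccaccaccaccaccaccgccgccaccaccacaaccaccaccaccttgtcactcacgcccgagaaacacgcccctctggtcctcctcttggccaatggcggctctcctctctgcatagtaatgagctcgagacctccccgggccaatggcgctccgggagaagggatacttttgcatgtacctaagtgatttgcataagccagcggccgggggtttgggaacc
FZD4: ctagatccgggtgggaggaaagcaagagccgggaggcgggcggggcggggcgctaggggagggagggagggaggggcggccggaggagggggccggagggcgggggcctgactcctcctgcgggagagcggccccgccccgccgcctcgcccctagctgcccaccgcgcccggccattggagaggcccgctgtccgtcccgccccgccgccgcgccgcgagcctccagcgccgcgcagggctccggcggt

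The DKK1 promoter held 2 matches, CTTTGAA at positions -95 to -89 and CTTTGTT at positions -76 to -70 from the start site, which do not overlap. The other 2 promoters held none of these letters. CTTTGAT occurred in 2.26%, CTTTGTT in 4.5% and CTTTGAA in 3.8% of 35116 human promoters of the same length, and 9.97% held at least one of them. Of the 41 listed genes 29 were in the promoter table, with 38 promoters, and 3 of these promoters held a match (those of DKK1, TCF7 and TCF7L2, 1 each). FZD4 had the richest promoter of the 3 in G and C, at 80.8% with 33 CpG, against 62.8% and 18 CpG for DKK1, 62.0% and 14 CpG for LGR4, and a median of 58.0% and 11 CpG over all promoters. A match to these letters is a description of the sequence and was not tied to the expression values.

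NKD2, which binds Dishevelled and restrains Wnt signalling, was the other inhibitor that was lower. It measured 8.22, 7.98 and 8.07 in L-INV and 7.01, 7.15 and 7.18 in H-INV. The groups were well apart, and the log2 fold change was -0.97 (SE 0.0849, adjusted p = 2.14e-05), just under 2-fold. The remaining 3 tested inhibitors did not pass. KREMEN1, a membrane protein that helps Dickkopf proteins to remove LRP5 and LRP6, measured 5.56, 5.66 and 5.65 in L-INV and 5.47, 5.13 and 5.57 in H-INV (log2 fold change -0.24, adjusted p = 0.0981), and it passed without H-INV replicate 3 (-0.33, adjusted p = 0.0396). Its groups overlapped and only 1 H-INV array was above background. AXIN1, the scaffold of the destruction complex, had a log2 fold change of 0.05 with a 95% confidence interval of -0.11 to 0.21. CTNNBIP1, which keeps beta-catenin from TCF factors, lay near background, with 2 L-INV arrays and 1 H-INV array above it and an interval of -0.36 to 0.32.

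The 17 Wnt genes with a probe but below the detection filter comprised 5 ligands (above), LRP6, LGR5, DVL1, TCF7L1 and 8 inhibitors, DKK3, SFRP1, FRZB, WIF1, RNF43, AXIN2, APC and NKD1. Their probes lay between 4.32 and 5.77 on every array, in or below the range of the lowest value above background or just above it, so they were left out of the test. AXIN2, a scaffold that is widely used as a readout of beta-catenin signalling, was above background on 1 L-INV array and 1 H-INV array, with 5.67, 5.06 and 5.45 against 5.31, 5.77 and 4.91. The AXIN2 groups overlapped throughout. When the filter was dropped, DKK3 (log2 fold change -0.90, adjusted p = 8.7e-05) and WNT7A (0.29, adjusted p = 0.0214) passed the test. For DKK3, a secreted Dickkopf relative, the values were 5.24, 5.35 and 5.44 in L-INV and 4.42, 4.42 and 4.50 in H-INV on that probe, and a second DKK3 probe was above background on 1 L-INV array. WNT7A was not above background on any array.

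**Figure D4:**
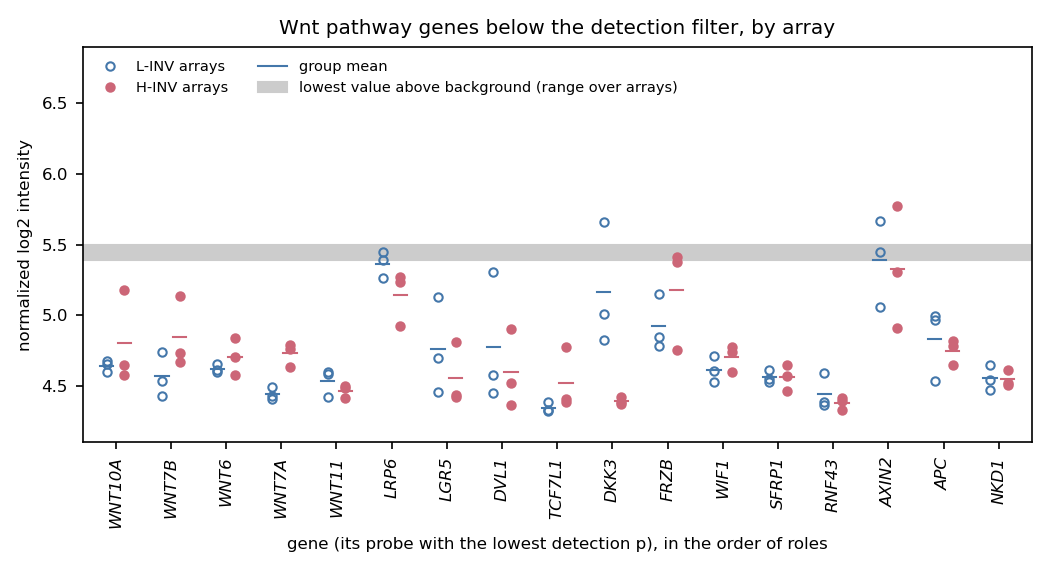
Normalized log2 intensity on each array for the 17 Wnt genes below the detection filter, each shown by its probe with the lowest detection p (open circles, L-INV; filled circles, H-INV; short lines, group means); the grey band spans the lowest value above background, 5.39 to 5.49. The points lie in or below the band apart from 1 L-INV value of DKK3 and, for AXIN2, 1 L-INV and 1 H-INV value.

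The wider pathway was read from 126 other Wnt genes in 8 lists, chosen with earlier results of these data known. Of these, 122 had a probe and 73 were tested: 20 were higher in H-INV, 24 were lower and 29 did not pass, so that 60.3% were called, again close to the background. Over all genes tested 58.0% were called, 32.6% higher and 25.4% lower, and the counts of each list below stand against these shares. For 5 of the tested genes (ROR2, RSPO3, SOSTDC1, MMP7 and CCN5) the probe used was above background in one group only. The same was so for 517 of the 10279 genes tested in all, and these 5 genes too had to differ. Among the 11 other ligands only WNT10B was tested, and it fell from 7.67, 7.62 and 7.70 in L-INV to 6.47, 6.47 and 6.60 in H-INV, a log2 fold change of -1.15 (SE 0.0692, adjusted p = 2.24e-06). Of 5 other receptors tested 1 was higher and 2 were lower. ROR2, a tyrosine kinase receptor for WNT5A, was above background on the 3 H-INV arrays (5.56, 5.50 and 5.52) and on no L-INV array (4.50, 4.43 and 4.74). It was at least 1.04-fold higher by the bound and 0.97 higher by the fit (adjusted p = 2.83e-05). FZD9 (log2 fold change -0.88, adjusted p = 0.000221) and FZD6 (-0.43, adjusted p = 0.0128) were lower, with no overlap between groups.

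All 5 tested genes of the 13 other extracellular and membrane inhibitors were called, 2 higher and 3 lower, against 58.0% called over all genes. The list was chosen with earlier results known, so this count is not a result about inhibitors. SOST, or sclerostin, a secreted inhibitor that binds LRP5 and LRP6 and is best known from bone, measured 6.76, 6.97 and 7.21 in L-INV and 12.10, 11.93 and 11.96 in H-INV. Its log2 fold change of 5.02 (SE 0.113, adjusted p = 6.06e-09) was opposite in sign to that of DKK1. KREMEN2, the second Kremen receptor, was higher (1.30, SE 0.0996, adjusted p = 9.48e-06). IGFBP4, an insulin-like growth factor binding protein that also restrains Wnt receptors, fell from a mean of 11.96 (SD 0.0559) to 7.51 (SD 0.0661, 3 arrays in each group; log2 fold change -4.45, adjusted p = 8.07e-10). TPBG, a Wnt inhibitor in zebrafish, was lower (-1.57, adjusted p = 8.23e-06). SOSTDC1, named after its values were seen, was above background on no H-INV array. It was at least 1.36-fold lower by the bound, with a fitted log2 fold change of -0.96.

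In the list of catenins, kinases and ubiquitin ligases, 16 genes were tested, with 6 higher, 4 lower and 6 that did not pass. CTNNB1, which encodes beta-catenin, measured 8.20, 8.20 and 8.18 in L-INV and 8.61, 8.61 and 8.83 in H-INV. The difference was modest but clear of the spread, at 0.49 (SE 0.0788, adjusted p = 0.000806). JUP, or plakoglobin, the close relative of beta-catenin in desmosomes, fell from 11.09, 10.95 and 11.08 to 5.69, 5.60 and 5.73 (log2 fold change -5.36, SE 0.0726, adjusted p = 6.28e-10). These values are from its brightest probe, and the mean of the kept JUP probes gave a smaller log2 fold change of -3.43. GSK3B, the kinase that marks beta-catenin for destruction, did not pass (-0.10, 95% confidence interval -0.24 to 0.04). FRAT2, a GSK3 inhibitor, was higher (0.62), and DIXDC1, which carries the DIX domain of Dishevelled and AXIN, was lower (-0.98), as was RNF146, the ubiquitin ligase that acts on AXIN (-0.74). Adjusted p-values for these 3 genes were 0.000383, 0.000115 and 0.00294.

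Of 17 tested nuclear cofactors of TCF/LEF, 6 were higher, 2 were lower and 9 did not pass. The Groucho co-repressors TLE4 and TLE3 had the largest differences. TLE4 measured 5.49, 5.68 and 5.10 in L-INV, with 2 arrays above background, and 7.18, 7.20 and 7.10 in H-INV (log2 fold change 1.73, SE 0.133, adjusted p = 9.79e-06). TLE3 was higher by 1.03 (SE 0.0738, adjusted p = 6.77e-06). The co-activator PYGO1 was higher by 0.52 (adjusted p = 0.0039), and TBL1XR1, which exchanges co-repressors, was lower by -0.46 (adjusted p = 0.00114).

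Genes described as targets of beta-catenin in other systems did not move one way. Of 16 tested, 3 were higher, 7 were lower and 6 did not pass, with a median log2 fold change of -0.17 against 0.05 over all genes. MMP7, or matrilysin, measured 5.18, 5.44 and 4.93 in L-INV and 7.85, 7.89 and 7.84 in H-INV (log2 fold change 2.68, SE 0.118, adjusted p = 3.22e-07). The MMP7 probe used was above background on no L-INV array, whereas a further probe of the gene was on 1. On the probe used, MMP7 was at least 5.26-fold higher by the bound. Its log2 fold change without background correction was 1.28, a smaller change than the bound. NRCAM, a cell adhesion molecule, was lower by -2.95 (SE 0.125, adjusted p = 2.51e-07). CCN5, a matricellular protein, was at least 2.21-fold lower, with no H-INV array above background, and its log2 fold change without background correction was -0.67, a smaller change than the bound. PLAUR, the urokinase receptor, was lower by -1.59 (SE 0.0642, adjusted p = 1.85e-07).

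In the branch that works without beta-catenin, 12 genes were tested, with 2 higher, 4 lower and 6 that did not pass. PRICKLE1, a planar cell polarity protein, measured 9.22, 9.16 and 9.11 in L-INV and 6.05, 6.08 and 6.33 in H-INV (log2 fold change -3.01, SE 0.0887, adjusted p = 2.85e-08). The kinases of the calcium branch CAMK2D (-0.95, adjusted p = 5.21e-05) and PRKCA (-0.84, adjusted p = 3.02e-05) were lower, and the calcium-regulated factor NFATC1 was higher (0.69, adjusted p = 0.00347), above background on 1 of 3 L-INV arrays.

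**Figure D5:**
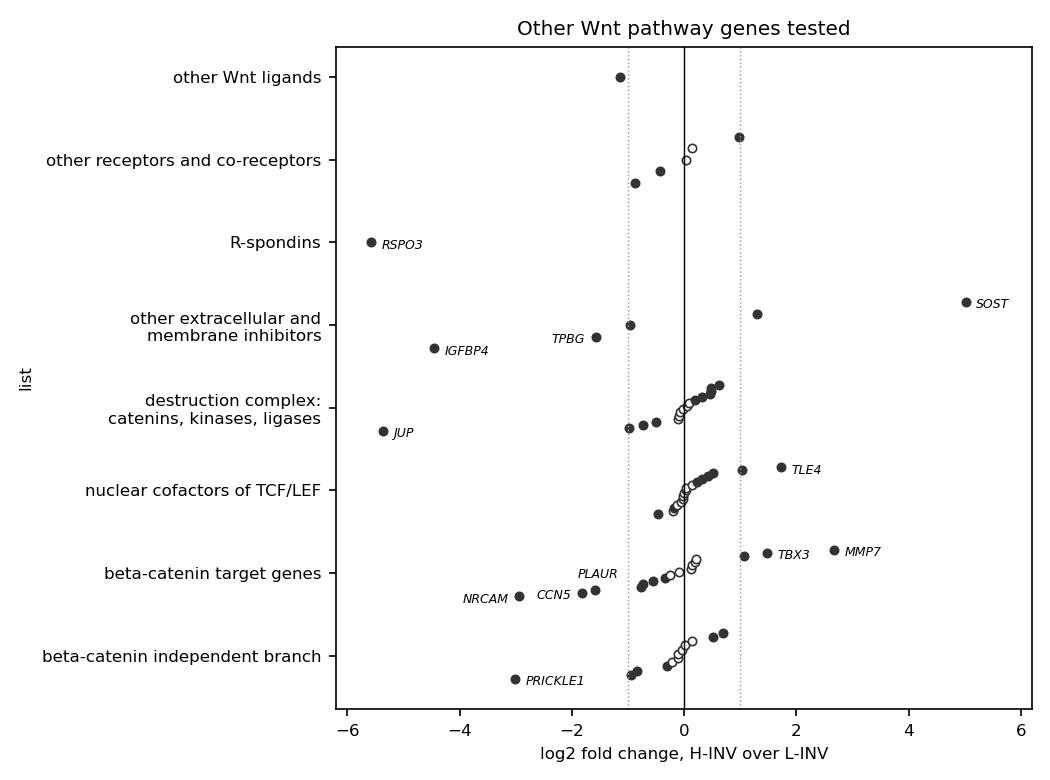
Log2 fold change of H-INV over L-INV for the 73 tested genes of 8 other Wnt pathway lists, 1 row for each list (filled points passed an adjusted p of 0.05, open points did not; dotted lines mark 2-fold; genes beyond 1.4 in either direction are labelled). Values run from -5.57 for RSPO3 to 5.02 for SOST, and the lists with more than 1 tested gene hold genes on both sides of 0.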

How the data were processed

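Total RNA of L-INV and H-INV cells from H460 (3 arrays each) was profiled on the Illumina HT-12 v4 array. The authors exported the arrays with GenomeStudio, and Partek is also named in the submitters' processing notes. The deposited scanner table gives probe intensity on a linear scale, not background-subtracted or normalized, for 47322 probes, along with a detection p-value, also deposited, that compares it with negative controls. A second deposited table holds the intensity of 47320 probes after background correction and quantile normalization by the authors, on a linear scale with values below 0 (lowest -24.0), and 40 was added before log2 where it served as an alternative. Genome build and probe sequences were not given in the sources used here.

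From the scanner table, background was corrected in limma 3.58.1 (R 4.3.3) by normexp, with an offset of 16 and the negative-control distribution recovered through the detection p-values, and values were quantile normalized and log2 transformed. This offset shrinks fold changes of dim probes. A probe was kept if 3 or more of the 6 arrays had a detection p under 0.01 (16941 probes), and the brightest probe of each symbol was used, giving 10279 genes. All 7 further probes of the tested Wnt genes that were kept gave the same call as the brightest. Genes were fitted with lmFit and eBayes (two-sided, Benjamini-Hochberg over all genes tested, adjusted p under 0.05, and a fold of 2 as in the methods). The number of arrays limits the precision, with a median standard error of 0.0824. A gene above background on no array of a group has only a bound there, set per array at the higher of its own value and the lowest signal above background. This bound holds on the background-corrected scale, and without that correction a change can be smaller than the bound.

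The 41 Wnt genes and the other lists were chosen with earlier results of these data known. All Wnt genes are accounted for, with values on every array where the groups did not overlap and the change passed 1.5-fold, and in other cases by value or count. From each other list the text names up to 4 called genes with the largest change, and CTNNB1, GSK3B and SOST in any case. Alternatives covered background correction, offset, scaling, the authors' table, the detection filter, the mean of a gene's probes, the one-way ANOVA that the study's methods name, the replicate number as a block and leaving out each array. The procedure was tested on simulated data.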

Additional observations from a re-analysis of the deposited data

How the results depend on the processing

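No Wnt gene that was called changed direction under any alternative, and of the 323 single values recomputed for the 22 tested genes 301 kept their side of the threshold, 12 newly passed and 10 no longer did. The number of genes past both 2-fold and the adjusted p was 1053, and it became 466 if background was not corrected, 691 if the offset was 50 and 639 when a gene had to be above background on all 6 arrays; the cause was not tested. That filter left 15 Wnt genes to test and 5 lower in place of 8, and the one-way ANOVA gave 3 higher in place of 6 and 6 lower in place of 8. Without background correction FZD8 (-0.69) and LEF1 (0.32) were below 2-fold. Leaving out 1 array at a time, with the normalized values kept, gave 5327 to 5726 genes called, 1034 to 1089 past both thresholds, and 6 to 7 Wnt genes higher and 7 to 9 lower. Replicate numbers did not pair the arrays (correlations of deviations from -0.093 to -0.019), and with the replicate block 5647 genes were called against 5958, with 7 Wnt genes higher and 8 lower. For 27 named genes of the other lists, recomputed after their values were seen, 397 values kept their side of the threshold, FZD6 lost it with the one-way ANOVA (adjusted p = 0.0744) and GSK3B passed it there. For genes at or near background in one group the size of a fold is limited by that signal: without background correction the log2 fold changes of DKK1, LGR4, RSPO3, JUP, PRICKLE1, TPBG, CCN5, MMP7, TLE4 and ROR2 were -3.11, -1.84, -3.33, -3.86, -1.97, -0.71, -0.67, 1.28, 0.76 and 0.33.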
